A study of Mus musculus with 8 samples.

Results

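The genes described here are 33 interferon-stimulated genes of the mouse, chosen by symbol from the tables of 8 RNA sequencing libraries of sorted thymocytes. Of the 33 symbols, 31 had a row, among 13073 genes listed in either system. In vitro 24 had a row and in vivo 31, and all 24 listed in vitro were also listed in vivo. Mx1 and Mx2, antiviral GTPases of the dynamin type, had no row in either system. The annotation lists Mx2 as a polymorphic pseudogene, and the reason for the missing rows was not tested. In vitro there was also no row for Ifit1, Ifit3b, Oas1a, Oas2, Oasl2, Rsad2 and Ifi44. The members were read as 3 classes: 11 type I-like genes (Ifit, Oas and Mx families), 8 GTPases of the gamma response (Gbp and Irg families) and 14 others.

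Each of 4 groups held 2 libraries. In the in vitro system the groups were labelled KO (genotype Bcl6fl/fl Cd4cre) and WT (genotype Bcl6fl/fl). Thymocytes positive for CD4 and CD8 (double-positive, DP) were sorted from each genotype and kept 24 h on plates coated with antibodies to CD3 and CD28, each at 8 µg/ml. Cells that then lacked CD4 and CD8 (double-negative, DN) were sorted for RNA. In the in vivo system the same KO and WT genotypes were used, and DN thymocytes bearing CD5 and TCRβ, called agonist precursors in the labels, were sorted directly. All 4 groups thus carry loxP-flanked Bcl6, and only the KO genotype adds Cd4cre, a recombinase driven by Cd4 regulatory sequence. BCL6 is a zinc-finger transcriptional repressor. The labels give no age and do not state that the replicates are different animals or cultures. The p-values therefore speak of the spread among these samples, which may be technical. Libraries were built by different companies in the 2 systems, so system and company cannot be told apart.

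Interferons are secreted antiviral proteins. Type I interferons (alpha and beta) act through the IFNAR receptor, JAK1 and TYK2 and drive a complex that holds STAT2 and IRF9 onto the interferon-stimulated response element (ISRE). Interferon gamma acts through the IFNGR receptor, JAK1 and JAK2 and works through the gamma-activated site (GAS), and the factor IRF1 that it induces also binds ISRE-like sequence. Many of these genes answer to both kinds of interferon, so a class name given here is a convention and not a measurement of which interferon was present.

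Promoter sequence is shown first for 7 members, because ISRE and GAS letters are the features by which this family is usually recognised. RefSeq windows on GRCm38.p6 (the mm10 assembly), from 250 bases before to 50 bases after an annotated gene start, were found for 24 of the 33 members, some with several starts. The windows are chr3:142620413-142620712 (plus strand) for Gbp2, chr3:142530086-142530385 (plus strand) for Gbp7, chr11:48871371-48871670 (minus strand) for Irgm1, chr11:58199306-58199605 (plus strand) for Igtp, chr11:53769764-53770063 (plus strand) for the first of the annotated starts of Irf1, chr19:34550444-34550743 (plus strand) for the first of those of Ifit2 and chr5:120777610-120777909 (minus strand) for Oas3. All read 5′ to 3′ along the gene, and capitals mark matches to the ISRE core, on either strand, which is GAAA, then any 2 bases (N), then GAAA again, or to the GAS core TTCNNNGAA, which is its own reverse complement. Matches of the same core may overlap and then run together. The known BCL6 binding consensus also has the shape of the GAS core, so such a match does not tell STAT from BCL6 sequence.
Gbp2: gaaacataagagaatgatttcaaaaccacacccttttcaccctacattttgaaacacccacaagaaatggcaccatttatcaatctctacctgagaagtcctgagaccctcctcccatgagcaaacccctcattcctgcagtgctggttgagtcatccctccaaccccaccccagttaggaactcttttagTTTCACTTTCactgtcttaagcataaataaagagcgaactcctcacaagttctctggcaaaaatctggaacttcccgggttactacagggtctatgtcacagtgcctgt
Gbp7: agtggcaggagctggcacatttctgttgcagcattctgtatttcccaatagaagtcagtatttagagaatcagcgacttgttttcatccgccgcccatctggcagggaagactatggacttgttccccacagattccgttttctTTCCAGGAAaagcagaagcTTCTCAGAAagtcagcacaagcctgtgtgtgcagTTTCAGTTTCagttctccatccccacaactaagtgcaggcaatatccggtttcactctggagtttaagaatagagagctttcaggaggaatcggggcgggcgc
Irgm1: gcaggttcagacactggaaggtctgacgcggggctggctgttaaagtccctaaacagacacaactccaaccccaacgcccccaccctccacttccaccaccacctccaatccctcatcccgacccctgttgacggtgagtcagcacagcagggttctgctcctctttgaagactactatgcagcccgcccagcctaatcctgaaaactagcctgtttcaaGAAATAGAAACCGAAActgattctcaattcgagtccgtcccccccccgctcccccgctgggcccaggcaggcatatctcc
Igtp: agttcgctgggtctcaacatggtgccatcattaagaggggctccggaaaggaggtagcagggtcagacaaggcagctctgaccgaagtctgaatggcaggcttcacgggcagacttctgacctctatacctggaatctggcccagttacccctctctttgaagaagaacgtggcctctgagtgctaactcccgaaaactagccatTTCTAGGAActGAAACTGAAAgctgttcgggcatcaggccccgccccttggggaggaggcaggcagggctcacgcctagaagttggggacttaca
Irf1: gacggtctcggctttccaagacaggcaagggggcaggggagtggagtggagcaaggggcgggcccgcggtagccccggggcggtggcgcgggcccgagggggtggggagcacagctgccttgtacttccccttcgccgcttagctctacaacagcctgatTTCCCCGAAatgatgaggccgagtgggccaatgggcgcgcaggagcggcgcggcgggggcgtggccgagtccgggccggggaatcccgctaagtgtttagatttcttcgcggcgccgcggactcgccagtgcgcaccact
Ifit2: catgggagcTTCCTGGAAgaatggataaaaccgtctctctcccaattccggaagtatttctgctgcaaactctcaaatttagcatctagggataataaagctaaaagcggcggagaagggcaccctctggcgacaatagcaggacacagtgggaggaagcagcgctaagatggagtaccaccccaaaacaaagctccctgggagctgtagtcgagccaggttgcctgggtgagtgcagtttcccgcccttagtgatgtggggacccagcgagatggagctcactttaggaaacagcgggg
Oas3: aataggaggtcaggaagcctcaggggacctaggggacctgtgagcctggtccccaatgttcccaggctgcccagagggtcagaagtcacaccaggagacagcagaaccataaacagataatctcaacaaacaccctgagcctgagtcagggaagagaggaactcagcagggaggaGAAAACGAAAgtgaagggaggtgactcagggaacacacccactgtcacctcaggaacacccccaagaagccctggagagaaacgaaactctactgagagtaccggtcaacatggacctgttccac

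The ISRE core was present in 14 of the 24 members with a window (58.3%), against 3.99% of all 27025 genes with such a window. Among the GTPases it was found in 5 of 6 (83.3%), among the type I-like genes in 5 of 8 (62.5%) and among the others in 4 of 10 (40%). The GAS core was present in 7 of the 24 (29.2%), against 9.55% of all genes. In Igtp a GAS match began at position -45 and an ISRE match at -34, counted from 0 at the gene start, and in Gbp7 a pair of GAS matches at -106 and -87 preceded an ISRE match at -53. Bst2 had a GAS match at -136 that overlapped an ISRE match at -130. Irf1 had a GAS match at -90 and no ISRE core in either window. Irf7, Irf9, Oasl1, Oasl2, Ifi44, Xaf1 and Ifi47 had neither set of letters in these windows, which says nothing of factors that bind elsewhere or to other letters.

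**Figure D1:**
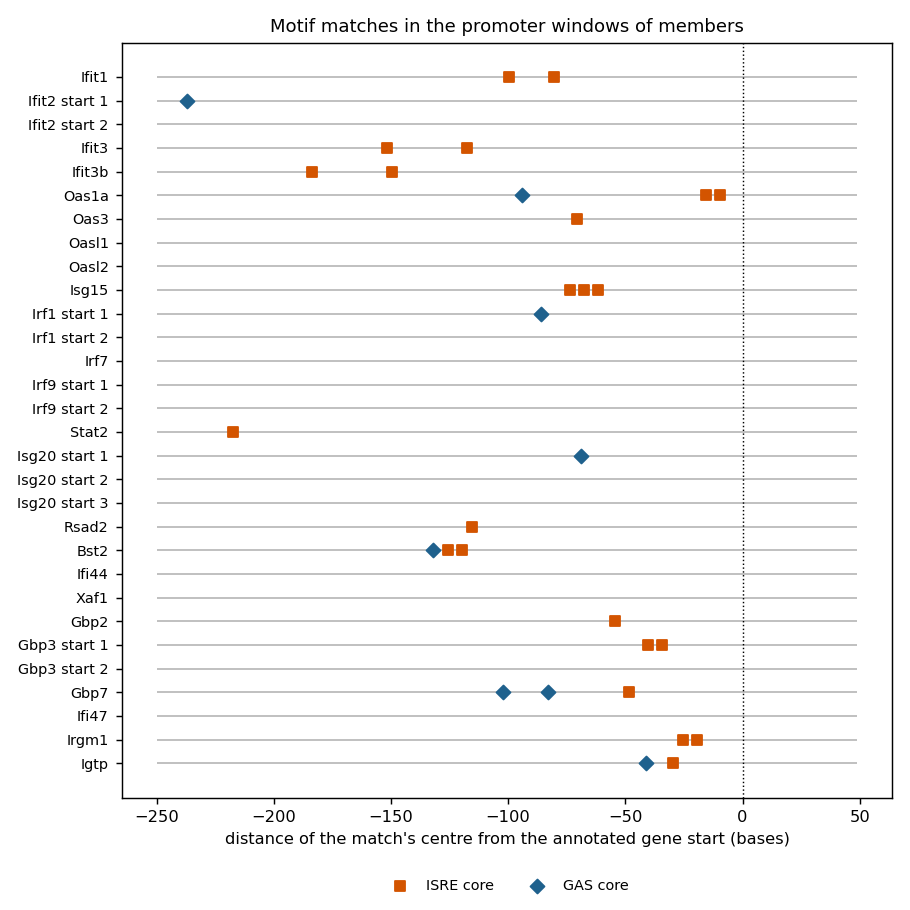
Matches to the ISRE core (squares) and the GAS core (diamonds) in the promoter windows of 24 members, 1 row per annotated start, plotted by distance in bases of the match's centre from the gene start (dotted line). ISRE matches of the GTPases Gbp2, Gbp3, Gbp7, Irgm1 and Igtp begin between -59 and -24.

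Total counts ranged from 14754440 to 23975636 per library. T lineage transcripts were present in every library, with summed FPKM of the 10 T lineage genes between 1575 and 1878. Levels are given as FPKM, the authors' value scaled for gene length and library depth, and fold changes come from the counts. Bcl6 itself, on chromosome 16 from 23965052 to 23988852, had FPKM of 64.6 and 61.0 in the in vitro libraries labelled KO and 24.9 and 21.9 in those labelled WT. In vivo it had 8.81 and 14.4 under the KO label and 11.5 and 13.9 under the WT label. In vitro the values were thus higher under the KO label. A gene-level count does not separate the deleted part, so it cannot check the labels. Groups are named by their labels throughout, and each fold change is KO label over WT label.

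The in vitro comparison asks which of these genes differ when stimulated DP cells that turned DN carry the labelled deletion. Of the 17 members tested in vitro (those reaching an FPKM of 1 in 2 or more libraries), 11 rose and none fell in the libraries labelled KO (edgeR, p adjusted by Benjamini-Hochberg over all genes tested, under 0.05). Over all 9658 genes tested, 20.1% rose and 17.7% fell. The GTPases moved together: 7 of 7 tested members of the Gbp and Irg families rose, by 0.47 to 1.39 on the log2 scale. Of the type I-like genes Ifit2 was the only member tested, and it rose. The 17 members had a median log2 fold change of 0.80, against -0.0028 over all genes tested. Isg15 and Irf7 passed the filter through the libraries labelled KO alone, so the counts and the median describe the 17 tested genes and not the 33. Among the 15 members with an FPKM of at least 1 in every in vitro library, 10 rose, where 1833 of 9206 genes rose.

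Among the guanylate-binding proteins, which coat and break vacuoles that hold pathogens, Gbp2 had FPKM of 7.46 and 8.57 in the in vitro libraries labelled KO, against 3.05 and 3.19 in those labelled WT. Gbp4 had 15.8 and 13.8 under the KO label, against 6.46 and 8.11 under the WT label, and Gbp7 had 8.54 and 7.45, against 3.05 and 4.25. In all 3 genes both libraries labelled KO lay above both libraries labelled WT, as in 32.5% of all genes tested in vitro. The log2 fold changes were 1.39 for Gbp2 (SE 0.14, n = 2 per group, edgeR adjusted p = 3.12e-05), 1.05 for Gbp4 (SE 0.12, adjusted p = 6.34e-05) and 1.17 for Gbp7 (SE 0.14, adjusted p = 0.000129). Gbp3 had 3.25 and 2.98 under the KO label, against 2.30 and 2.27 under the WT label, and rose by 0.47 on the log2 scale (SE 0.16, edgeR adjusted p = 0.0373). The call of Gbp3 was lost without any single library, where its adjusted p lay between 0.0512 and 0.148, and with DESeq2 (adjusted p = 0.103). Gbp2, Gbp3 and Gbp7 lie close together on chromosome 3 between 142530342 and 142638008. Gbp4, on chromosome 5 from 105115767 to 105139586, overlaps Gbp8 and Gbp9 on the same strand in the annotation, so the split of reads among these similar genes is uncertain.

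The immunity-related GTPases, which act on the same vacuoles, include the 2 most abundant GTPases in vitro, Ifi47 and Igtp. Ifi47 had FPKM of 27.5 and 26.3 in the libraries labelled KO, against 17.97 and 20.4 in those labelled WT, and Igtp (IRGM3) had 22.3 and 20.7, against 14.8 and 16.0. Irgm1, a regulatory member of the family, had 4.82 and 3.93 under the KO label, against 1.84 and 2.58 under the WT label. In all 3 the libraries labelled KO lay above without overlap, as in 32.5% of all genes tested in vitro. Ifi47 and Igtp rose by nearly the same amount, with log2 fold changes of 0.52 (SE 0.10, edgeR adjusted p = 0.00172) and 0.51 (SE 0.10, adjusted p = 0.00191), and Irgm1 rose by 1.03 (SE 0.17, adjusted p = 0.000692). Ifi47, Igtp and Irgm1 all lie on chromosome 11. In the annotation Igtp overlaps Irgm2, and Ifi47 overlaps Olfr56, on the same strand.

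All 4 transcription factors of the family were higher without overlap in the in vitro libraries labelled KO, as were 32.5% of all genes tested. Of the 4, 2 passed, where 20.1% of all genes tested rose. Irf1, induced by interferon gamma and by antigen receptor signals, had FPKM of 13.2 and 14.6 in the in vitro libraries labelled KO, against 6.23 and 7.05 in those labelled WT. Irf7, which amplifies type I interferon transcription, had 1.96 and 2.04 under the KO label, against 0.849 and 0.843 under the WT label. Irf1 rose by 1.101 (SE 0.10, edgeR adjusted p = 1.74e-05) and Irf7 by 1.26 (SE 0.19, adjusted p = 0.000488), though Irf7 entered the test only through the libraries in which it was high. Irf9 and Stat2, whose proteins are part of the ISRE-binding complex, had log2 fold changes of 0.27 (SE 0.10, adjusted p = 0.0592) and 0.18 (SE 0.08, adjusted p = 0.111). Stat2 had 12.4 and 12.5 under the KO label, against 11.3 and 11.0 under the WT label, a difference that did not pass. No test compared the factors with each other. Without single libraries the log2 fold change of Irf9 ran from 0.146 to 0.373. Irf7 overlaps Phrf1 on the opposite strand, and the strand setting of the counting is not given in the sources used here.

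Zbp1, a sensor of Z-form nucleic acid that starts necroptosis, had the largest fold change of the 17 tested members. It stood at 7.81 and 7.92 FPKM under the KO label in vitro, against 2.04 and 2.69 under the WT label, and rose by 1.78 on the log2 scale (SE 0.14, edgeR adjusted p = 6.94e-06). Ifit2, whose protein binds viral RNA, had 7.35 and 5.67 under the KO label, against 3.36 and 4.32 under the WT label, and rose by 0.80 (SE 0.16, adjusted p = 0.00246). Isg15, a ubiquitin-like modifier, was close to the detection filter with 1.04 and 1.38 under the KO label, against 0.415 and 0.696 under the WT label (log2 fold change 1.21, SE 0.45, adjusted p = 0.0545). Isg15 entered the test only through the libraries labelled KO. It passed the threshold with limma on log2(FPKM + 1) (adjusted p = 0.0126). Without single libraries its edgeR log2 fold change ran from 0.826 to 1.571. The exonuclease gene Isg20 had a log2 fold change of 0.59 (SE 0.25, adjusted p = 0.0805). Bst2 (tetherin, which holds budding virus at the membrane) and Ifi27l2a were the members with a negative sign. Bst2 had 13.6 and 13.3 under the KO label, against 16.7 and 13.96 under the WT label, and Ifi27l2a had 6.57 and 6.07, against 7.29 and 8.59. Their log2 fold changes were -0.17 (SE 0.14, adjusted p = 0.372) and -0.29 (SE 0.23, adjusted p = 0.33), and limma on log2(FPKM + 1) called Ifi27l2a lower (adjusted p = 0.0441).

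**Figure D2:**
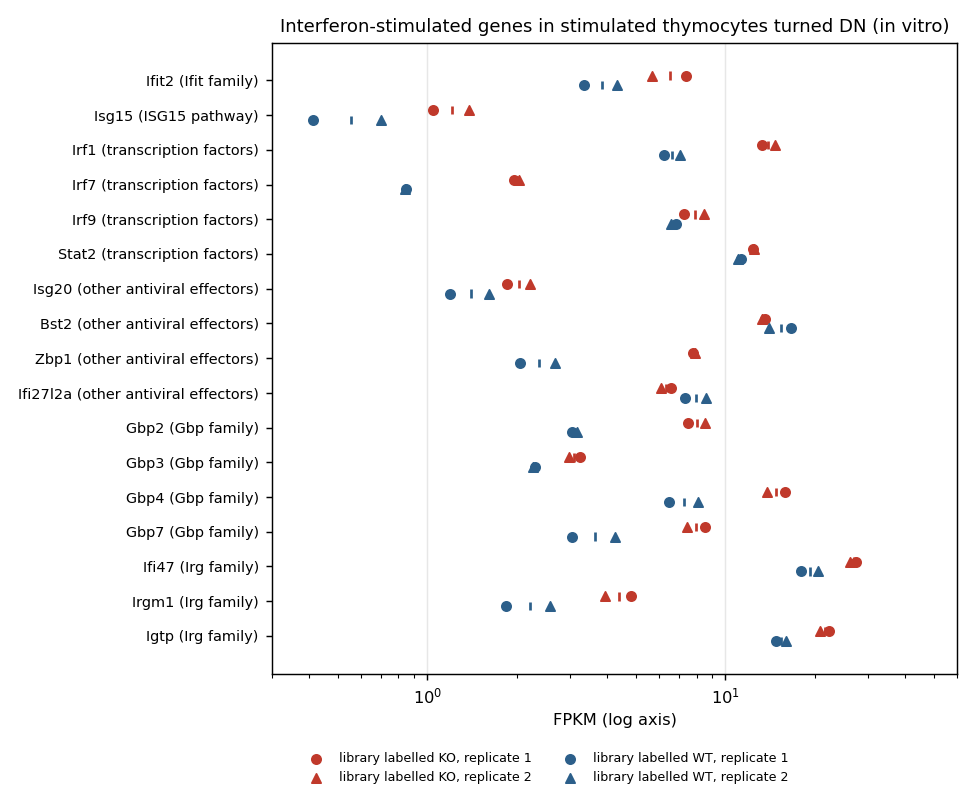
FPKM (log axis) of the 17 members tested in vitro, with 1 point per library (KO in red above WT in blue, circles for replicate 1, triangles for replicate 2) and a tick at each group's mean. In 15 of the 17 both libraries labelled KO lie above both labelled WT, and in Bst2 and Ifi27l2a below.

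Both groups were separate at each of the 17 tested members, with the libraries labelled KO above in 15 (88.2%) and below in 2. Over all genes tested in vitro the libraries labelled KO were above without overlap in 32.5% and below in 38.6%. WT replicate 1 was the lowest in vitro library in 11 of the 17 tested members (64.7%), against 27.4% of all genes tested. Without it the members' median log2 fold change was 0.61. The 7 members listed in vitro but below the filter had few reads, so their ratios are given on counts scaled by library size, with exact 95% binomial intervals that cover counting error only. Oas3, of the family that makes the RNase L activator, had 40 and 49 counts in the libraries labelled KO, against 6 and 9 in those labelled WT, a ratio of 6.18 (3.56 to 11.5). Xaf1, a pro-apoptotic factor, had 42 and 50 counts, against 7 and 11, a ratio of 5.33 (3.19 to 9.39). Rtp4 had 18 and 32, against 3 and 8, a ratio of 4.74 (2.43 to 10.1). The GTPase gene Iigp1 had counts of 5 and 17 in the libraries labelled KO and none in those labelled WT. With 3 counts over the WT group taken as the floor, its ratio was 7.64, without allowance for counting error in the KO counts. These 4 genes were also called when no filter was used (edgeR adjusted p = 0.000402, 0.000642, 0.00848 and 0.00396 for Oas3, Xaf1, Rtp4 and Iigp1). In that fit 2120 of all 12133 genes rose. Oasl1, with 13 and 18 counts against 4 and 9, had a ratio of 2.49 (1.26 to 5.18), and Ifit3, with 6 and 10 against 7 and 0, of 2.38 (0.927 to 6.85). Usp18, which cleaves ISG15 and damps the type I receptor, had 27 and 37 against 25 and 22, a ratio of 1.42 (0.959 to 2.11). Without a filter these last 3 were not called (edgeR adjusted p = 0.108 for Oasl1, 0.275 for Ifit3 and 0.315 for Usp18).

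The rest of the pathway was read from lists of related genes. Over all genes tested in vitro 20.1% rose and 17.7% fell. The signal factors and brakes, at 15.4% each way, were near those shares. None of 9 interferon genes listed had a row in vitro. Of 8 tested receptor and kinase genes 3 rose and none fell: the gamma receptor chains Ifngr2 and Ifngr1 and the kinase Jak1. Ifngr2 had FPKM of 9.53 and 7.77 in the libraries labelled KO, against 2.76 and 3.57 in those labelled WT (log2 fold change 1.49, SE 0.15, edgeR adjusted p = 2.88e-05), and Ifngr1 had 31.7 and 30.1, against 23.5 and 27.0 (0.32, SE 0.10, adjusted p = 0.0211). The type I receptor chains Ifnar1 and Ifnar2 had -0.04 (SE 0.08, adjusted p = 0.703) and 0.20 (SE 0.09, adjusted p = 0.107). The kinases Tyk2 and Jak2 had 0.215 (SE 0.083, edgeR adjusted p = 0.0613) and 0.004 (SE 0.093, adjusted p = 0.979). Il10rb had -0.165 (SE 0.135, edgeR adjusted p = 0.363). Of 13 signal factors and brakes 2 rose, among them Irf2 (0.39, SE 0.09, adjusted p = 0.00485), and 2 fell, Irf4 (-0.82, SE 0.10, adjusted p = 0.000153) and Trim24 (-0.29, SE 0.09, adjusted p = 0.0218). Socs1, which blocks the receptor kinases, had 21.1 and 22.7 under the KO label, against 23.4 and 22.2 under the WT label.

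Of 10 tested genes of nucleic acid sensing 6 rose and none fell, led by the RNA sensor Ddx58 (RIG-I) at 5.98 and 5.16 in the in vitro libraries labelled KO, against 1.90 and 2.38 in those labelled WT (log2 fold change 1.42, SE 0.13, edgeR adjusted p = 1.66e-05). The others were Ikbke, Tlr9, Adar, Samhd1 and Aim2. These counts and those below stand beside 20.1% of all genes tested in vitro that rose and 17.7% that fell. Of 28 tested genes of a wider list of interferon-induced genes that are not members 21 rose and 1 fell, with a median of 0.53. Nlrc5, the activator of class I antigen presentation genes, rose by 1.86 (SE 0.19, edgeR adjusted p = 2.94e-05), Slfn2 by 1.32 (SE 0.13) and Lgals3bp by 1.11 (SE 0.10). Gbp9 and Gbp8, neighbours of Gbp4, both rose by 0.96 (SE 0.11 and 0.14), and the immunoproteasome subunit Psmb9 rose by 0.69 (SE 0.09). Ly6e was the gene that fell (-0.50, SE 0.09, adjusted p = 0.00154). Late mature thymocyte markers moved with these genes: their summed FPKM (8 of 8 listed) was 356.8 and 350.8 under the KO label, against 87.7 and 113.1 under the WT label, and 7 of 7 tested rose. The part of this marker shift in the result was not tested.

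**Figure D3:**
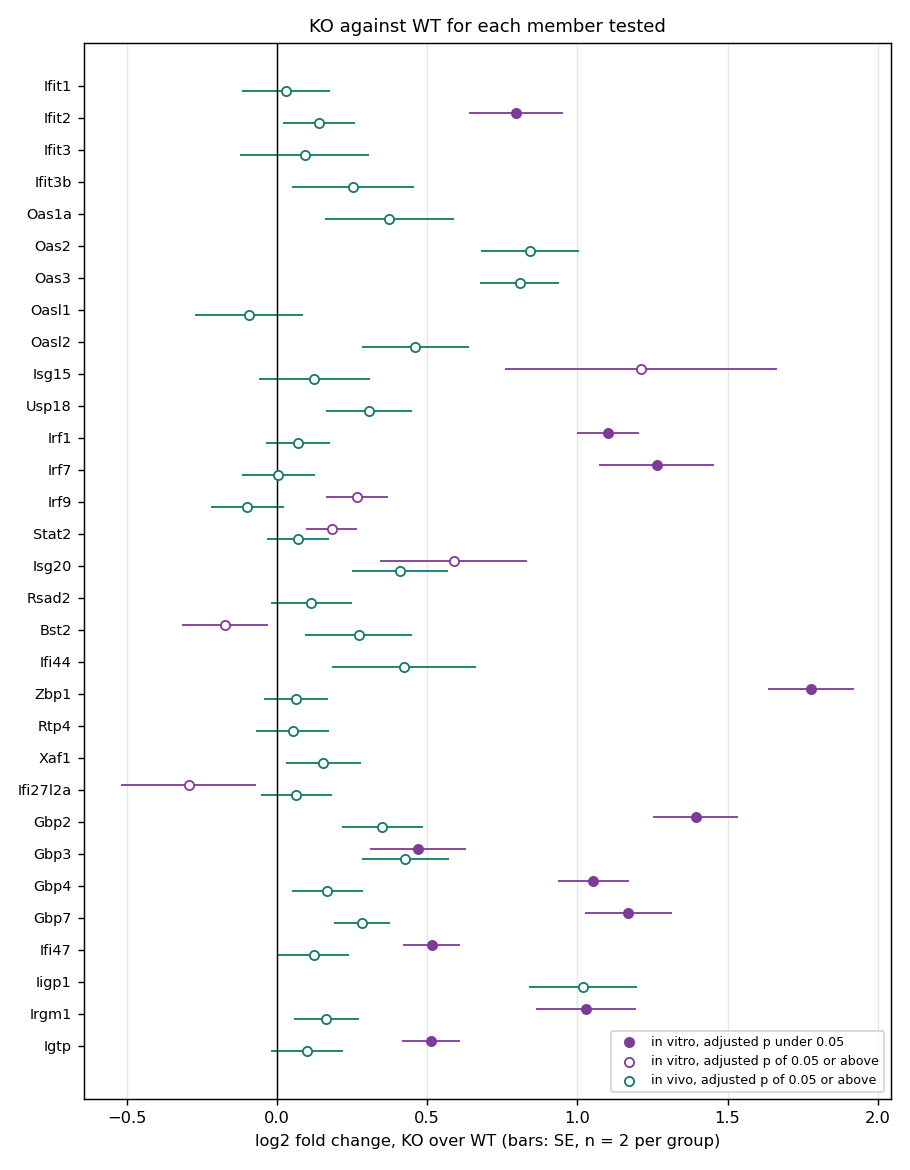
Log2 fold change of KO over WT for the 31 members tested in at least 1 system, with bars of 1 SE (n = 2 per group), in vitro in purple and in vivo in green, and filled points for an adjusted p under 0.05. The 11 filled points are all in vitro, and the in vivo points lie between -0.10 and 1.02.

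In vivo, the same question was put to agonist precursors sorted straight from the thymus. There the family was well expressed under both labels, and 0 of the 31 tested members passed the threshold in either direction (edgeR adjusted p of at least 0.0588), with 8 at an unadjusted p under 0.05. DESeq2 called 3, among 505 of 10227 genes called. An edgeR fit of all 8 libraries called 2 of the 24 it could hold, among 545 of 10015 genes. With same-numbered replicates treated as pairs, which the labels do not state, edgeR called 6 members among 1078 genes. Limma on log2(FPKM + 1) called 0 members among 68 genes. In the main edgeR fit 0.284% of all 10227 genes tested rose and 0.821% fell, 1.1% in all, and a count of 0 among 31 is close to that background. Of the 31 members 29 had a positive sign, with a median log2 fold change of 0.15 against -0.00356 over all genes tested. The libraries labelled KO lay above without overlap in 12 members (38.7%) and below in none, against 22% and 21.4% of all genes tested.

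The largest in vivo differences were in Iigp1 and in Oas2 and Oas3, which lie next to each other on chromosome 5 between 120730333 and 120777661. Oas3 had FPKM of 28.6 and 27.4 in the libraries labelled KO, against 17.8 and 14.02 in those labelled WT (log2 fold change 0.81, SE 0.13, n = 2 per group, edgeR adjusted p = 0.0588). Oas2 had 12.4 and 16.3 under the KO label, against 8.59 and 7.33 under the WT label (0.84, SE 0.16, adjusted p = 0.0833). Iigp1, an Irg GTPase on chromosome 18, had 3.36 and 4.11, against 1.65 and 2.02 (1.02, SE 0.18, adjusted p = 0.0681). All 3 were separate between groups, and DESeq2 called all 3 (adjusted p = 1.34e-05 for Oas3, 0.000825 for Oas2 and 0.00288 for Iigp1), while limma on log2(FPKM + 1) called none of them (adjusted p of at least 0.062). An edgeR fit of all 8 libraries called Oas3 (adjusted p = 0.00615) and Iigp1 (adjusted p = 0.0335) and could not hold Oas2, which has no row in vitro. Without WT replicate 2 edgeR gave 0.65 for Oas3, 0.74 for Oas2 and 1.17 for Iigp1 (adjusted p = 0.108, 0.237 and 0.149). The related Oasl2 had 0.46 (SE 0.18, adjusted p = 0.315), Oas1a 0.37 (SE 0.22, adjusted p = 0.543) and Oasl1 -0.09 (SE 0.18, adjusted p = 0.906).

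The Ifit genes overlapped between groups in all 4 cases in vivo. Ifit1 had FPKM of 16.2 and 19.2 in the libraries labelled KO, against 19.0 and 15.4 in those labelled WT, and Ifit3 had 22.2 and 21.1, against 24.9 and 15.5. Their log2 fold changes were 0.03 (SE 0.15, edgeR adjusted p = 0.971) and 0.09 (SE 0.22, adjusted p = 0.925). Ifit2 had 15.9 and 13.6, against 13.7 and 13.0, and Ifit3b had 6.48 and 5.56, against 5.74 and 4.32. Ifit3 and Ifit3b are close copies on chromosome 19, so the split of reads between them is uncertain. Isg15 had 25.7 and 25.2 under the KO label, against 26.9 and 19.5 under the WT label, and Usp18 had 9.44 and 10.6, against 8.89 and 7.17. The groups overlapped in Isg15 and were separate in Usp18, whose log2 fold change did not pass (0.31, SE 0.14, edgeR adjusted p = 0.427).

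The 4 transcription factors also overlapped between groups in vivo. Irf7 had FPKM of 45.4 and 43.0 in the libraries labelled KO, against 48.0 and 39.6 in those labelled WT, and Irf1 had 41.4 and 42.7, against 42.7 and 36.9. Irf9 had 26.4 and 31.9, against 32.2 and 29.8, and Stat2 had 18.9 and 21.2, against 18.3 and 19.6. Their log2 fold changes ran from -0.10 to 0.07. Zbp1, which had the largest rise in vitro, had 42.9 and 49.5 under the KO label, against 44.4 and 43.6 under the WT label in vivo (0.06, SE 0.11, edgeR adjusted p = 0.889). The most abundant member in vivo was Ifi27l2a, at 115.7 and 137.9 under the KO label and 122.9 and 118.3 under the WT label. Rsad2 (viperin, which makes a chain-terminating nucleotide) had 5.35 and 5.07, against 5.16 and 4.42, and Rtp4 and Xaf1 had log2 fold changes of 0.05 (SE 0.12) and 0.16 (SE 0.13). Ifi44 was the least abundant, at 1.09 and 1.31, against 1.03 and 0.740.

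Of the 8 GTPases 5 were separate between groups in vivo, all with the libraries labelled KO higher. Over all genes tested in vivo 22% were separate with the KO label higher and 21.4% with it lower. Gbp7 had FPKM of 32.2 and 32.7 under the KO label, against 25.8 and 27.2 under the WT label (0.28, SE 0.09, edgeR adjusted p = 0.239). Gbp3 had 7.78 and 7.04, against 5.93 and 5.03 (0.43, SE 0.14, adjusted p = 0.244), and Gbp2 had 26.8 and 31.4, against 24.8 and 20.5 (0.35, SE 0.13, adjusted p = 0.308). None of these passed. Irgm1 had 0.17 (SE 0.11, adjusted p = 0.604), and Gbp4, Ifi47 and Igtp overlapped, with log2 fold changes of 0.17, 0.12 and 0.10. The median log2 fold change was 0.23 for the 8 GTPases and 0.25 for the 9 type I-like genes tested in vivo, and no test compared the classes.

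**Figure D4:**
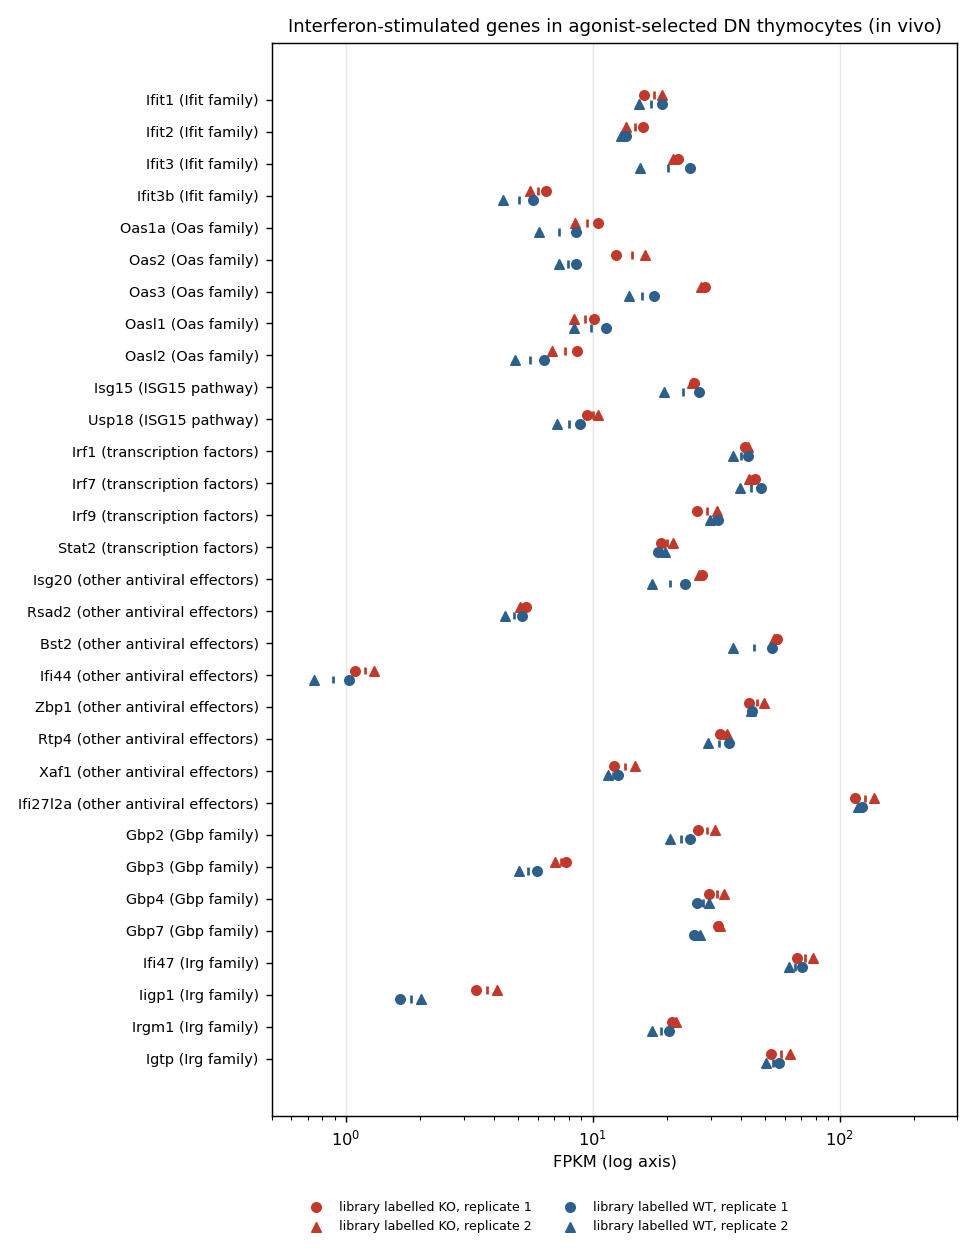
FPKM (log axis) of the 31 members tested in vivo, with 1 point per library (KO in red above WT in blue, circles for replicate 1, triangles for replicate 2) and a tick at each group's mean. The groups overlap in 19 members, and WT replicate 2 is the lowest library in 23.

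Single libraries stood out in the in vivo values. KO replicate 2 was the highest of the 4 libraries in 15 of the 31 members (48.4%), against 21.9% of all genes tested. WT replicate 2 was the lowest of the 4 libraries in 23 of the 31 members (74.2%), against 32.2% of all genes tested. Without it, 23 of 31 members had a positive sign and the median log2 fold change was 0.07. Without WT replicate 1 these were 30 of 31 and 0.25, and Oas3 passed the threshold (edgeR adjusted p = 0.0249). Over all genes the number called in vivo was 113, and 7 without WT replicate 2. Of 9 interferon genes looked up, only Ifng, the interferon gamma gene, had a row in vivo. Ifng followed the same library, with FPKM of 12.4 and 17.4 under the KO label and 18.7 and 6.82 under the WT label (0.21, SE 0.44, edgeR adjusted p = 0.914).

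Markers of other cells also differed among the in vivo libraries. Summed FPKM of the B cell list (7 of 7 listed, all with a row) was 273.9 and 103.7 in the libraries labelled KO, against 103.5 and 31.3 in those labelled WT, mostly from Cd74. The myeloid and dendritic list (9 of 10 with a row) summed to 137.5 and 26.2, against 37.3 and 17.8, with Lyz2 at 108.7 in KO replicate 1. Markers of innate-like T and NK cells (8 of 8 with a row) summed to 606.3 and 527.2, against 500.7 and 314.5. All 3 sums were lowest in WT replicate 2. Other lists did not follow this order. The gamma delta T list (2 of 6 with a row) summed to 82.5 and 47.2, against 86.5 and 55.2. The thymic stroma list (3 of 8 with a row) summed to 20.3 and 20.5, against 22 and 26.5, and was highest in WT replicate 2. The plasmacytoid dendritic list (4 of 6 with a row) summed to 31.2 and 33.7, against 32.3 and 30.3, mostly from Pacsin1, and Siglech and Klk1 had no row. Within it Spib, which B cells also express, had 2.56 and 1.66 under the KO label, against 1.25 and 0.347 under the WT label. None of the markers tested in these lists passed in vivo, where 1.1% of all genes tested did. The part of these markers in the members' values was not tested. In bulk samples, fewer cells of a type and less RNA per cell cannot be told apart. In vitro the sums were at most 7.24 for the B cell list, 4.23 for the myeloid list and 2.05 for the innate-like list. The plasmacytoid sum in vitro was 28.9 and 30.9 under the KO label, against 25.4 and 23.7 under the WT label, again mostly from Pacsin1, which rose there (0.35, SE 0.08, edgeR adjusted p = 0.00572).

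**Figure D5:**
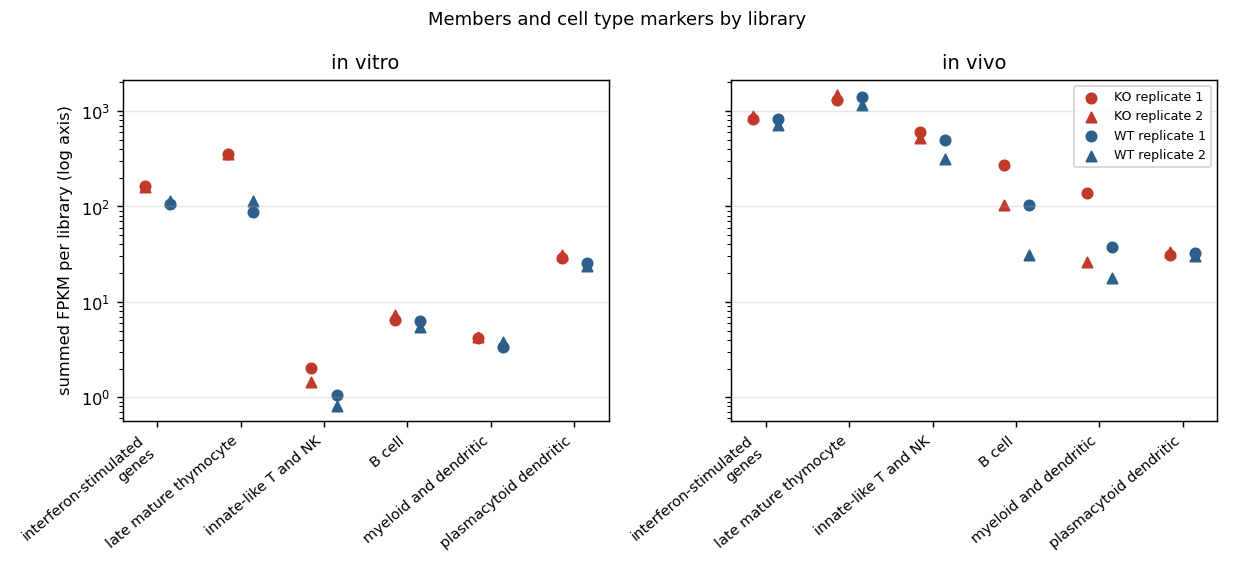
Summed FPKM per library (log axis) of the interferon-stimulated genes and of 5 marker lists, in vitro (left) and in vivo (right), KO in red left of WT in blue. The late mature list is higher in both libraries labelled KO in vitro (356.8 and 350.8 against 87.7 and 113.1), and the B cell and myeloid lists vary widely among the 4 in vivo libraries.

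In the pathway around the members 0 genes passed in vivo: 0 of 8 receptor and kinase genes, 0 of 15 signal factors and brakes, 0 of 13 sensing genes and 0 of 38 further interferon-induced genes (edgeR, adjusted p under 0.05). Over all genes tested in vivo 1.1% passed, so these counts are close to the background. Those at an unadjusted p under 0.05 included Ifngr1, at 159.1 and 159.6 FPKM under the KO label, against 132.4 and 102.3 under the WT label (0.43, SE 0.14, adjusted p = 0.23). Socs3, a brake on STAT3 signals, had 10.2 in both libraries labelled KO, against 23.9 and 17.3 in those labelled WT (-1.02, SE 0.17, adjusted p = 0.0588). Ifitm1 and Ifitm3, which keep viruses from fusing with endosomes, had 2.88 (SE 0.51, adjusted p = 0.0681) and 1.74 (SE 0.35, adjusted p = 0.0943). Ifitm1 was at 16.5 and 22.4 under the KO label, against 4.15 and 1.08 under the WT label. The median of the 38 was 0.13.

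The difference between the systems was tested directly over all 8 libraries, as the in vivo log2 fold change minus the in vitro one. Of the 17 members tested in both systems 7 passed, all negative (edgeR adjusted p under 0.05), that is with a smaller KO-over-WT change in vivo than in vitro. The sign rests on the in vitro labels, which gene-level Bcl6 counts cannot check. With those labels exchanged, 12 members passed, all positive, and the same 7 were among them, at 1.19 to 1.86. The exchange only turns the sign of the in vitro term. A positive value was thus fixed in advance for members that rose in vitro and changed little in vivo, and is no separate support. In that exchanged fit 1803 of 9364 genes passed, 1111 of them positive. As labelled, 16.4% of all 9364 genes tested passed, 9.81% in the negative direction. Among those that passed, the largest was Zbp1 at -1.69 (SE 0.18, adjusted p = 0.000543), followed by Irf7 at -1.23 (SE 0.20, adjusted p = 0.00301), Gbp2 at -1.02 (SE 0.20, adjusted p = 0.00667) and Irf1 at -1.003 (SE 0.16, adjusted p = 0.00272). Gbp7 and Gbp4 both had -0.86 (SE 0.19 and 0.18, adjusted p = 0.0126 and 0.00941) and Irgm1 had -0.84 (SE 0.22, adjusted p = 0.0266). Without WT replicate 1 of the in vitro system the adjusted p was 0.056 for Gbp4, 0.0568 for Gbp7 and 0.119 for Irgm1, and 4 members passed. Without KO replicate 1 of that system Gbp7 and Irgm1 had 0.0598 and 0.0944, and without KO replicate 1 in vivo Irgm1 had 0.0722. Gbp3, at -0.02 (SE 0.20, adjusted p = 0.965), had similar fold changes in both systems as labelled, with a difference whose sign turned in 6 of 16 other settings. With the in vitro labels exchanged the Gbp3 difference was 0.91 (SE 0.20, adjusted p = 0.01). Isg15 had -1.07 (SE 0.49, adjusted p = 0.162), Ifit2 -0.63 (SE 0.22, adjusted p = 0.0731), Ifi47 -0.37 (SE 0.16, adjusted p = 0.137) and Igtp -0.39 (SE 0.16, adjusted p = 0.123).

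The levels of the members stood far apart in the 2 systems. In all 24 members with a row in both, every in vivo library was above every in vitro library in FPKM, as it was in 30.9% of the 11725 genes listed in both. Irf7 averaged 44.2 in the libraries labelled KO and 43.8 in those labelled WT in vivo, and 1.996 and 0.846 in vitro. Zbp1 averaged 46.2 and 44.0 in vivo, and 7.87 and 2.37 in vitro under the same labels. Stat2 lay nearer, at 20.0 and 19.0 in vivo and 12.4 and 11.2 in vitro, as did Gbp3, at 7.41 and 5.48 in vivo and 3.11 and 2.28 in vitro. Summed over the listed members, FPKM was 832.1 and 897.6 under the KO label and 824 and 718.1 under the WT label in vivo, and 165.1 and 160.6 under the KO label and 106.3 and 115.3 under the WT label in vitro. Cells, culture and sequencing company all differ between the systems, so these levels carry no test.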

How the data were processed

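Per the file headers, each deposited table gives for every gene a raw count and an FPKM, as computed by the authors. Tools named in the submitters' processing notes are DESeq2, RSEM, Subread, featureCounts, Bowtie2 and Trim Galore (0.4.4), with mm10 as the build, without roles or an order. The lowest mean count of any listed gene was 5 in each system, so genes with fewer reads have no row.

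Counts were tested with edgeR 4.0.16 (quasi-likelihood, TMM scaling, R 4.3.3, two-sided) within each system's 4 libraries, and over all 8 for the difference between systems. Genes entered when 2 or more libraries reached an FPKM of 1. P-values were adjusted by Benjamini-Hochberg over all genes tested, with a threshold of 0.05, and each SE was derived from the fold change and its F statistic. Alternatives used limma 3.58.1 on log2 of the authors' FPKM, DESeq2 1.42.0, other scalings and filters, exchanged in vitro labels, and each library left out. Replicate libraries of a group were not duplicates (chi-square per degree of freedom from 9.32 to 18.9). Total counts per library are in the report, and intervals cover counting error only. Procedures were tested on simulated data. Coordinates come from GENCODE M21 and promoters from RefSeq. The members and gene lists were chosen with earlier results of these data known. Every member is named, and genes of the related lists are named by smallest p in a system. The 8 receptor and kinase genes tested in vitro are an exception, since all are named. Gbp8, Psmb9, Socs1, Ly6e and the single markers were named after their values were seen. Some genes of the related lists are not reported here by name.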

Additional observations from a re-analysis of the deposited data

Results flagged for a closer look

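For 7 members the KO-over-WT change differed between the systems by the direct test over all 8 libraries (edgeR, adjusted p under 0.05), where 16.4% of all genes did. As in vivo minus in vitro log2 fold changes, the differences were -1.688 for Zbp1, -1.234 for Irf7, -1.017 for Gbp2, -1.003 for Irf1, -0.857 for Gbp7, -0.856 for Gbp4 and -0.837 for Irgm1. Gene-level Bcl6 counts, higher in vitro under the KO label, cannot check the in vitro labels. With those labels exchanged the same 7 differences passed with a positive sign, from 1.186 for Irf1 to 1.858 for Zbp1. That sign was fixed in advance, since the exchange only turns the sign of the in vitro term, and is no separate support. In that exchanged fit 1111 of 9364 genes passed with a positive sign. As labelled, each of the 7 rose in vitro, by 1.03 to 1.78, and had an in vivo value between 0.005 and 0.351. Over the 8 fits that each left out 1 library, Zbp1, Irf7, Gbp2 and Irf1 passed in all, Gbp4 was lost in 1 (adjusted p = 0.056 without WT in vitro replicate 1), Gbp7 in 2 and Irgm1 in 3. Irf7 entered the in vitro test only through the libraries labelled KO. With FPKM of at least 1 in every library 6 members passed, among 1480 of 8945 genes. System, culture and sequencing company cannot be told apart in this design.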

How the results depend on the processing

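With the group labels as given, of the summary values under the alternatives 111 stayed within their limits and 29 moved, and of the members' fold changes 835 kept direction and call, 28 gained a call, 13 lost one and 25 changed sign. Members risen in vitro numbered 10 to 12 without single libraries. The in vitro median was 1.053 with no filter, 0.603 with FPKM of at least 1 in every library, 0.508 with limma on log2(FPKM + 1), and 0.61 to 0.98 without single libraries. Members fallen in vitro were 1 with either limma pseudocount. Genes called in vivo numbered 64 with the stricter filter, 505 with DESeq2, 68 and 75 with limma (pseudocounts 1 and 0.1), 545 in a fit of all 8 libraries, and 7 to 279 without single libraries. Members risen in vivo were 3 with DESeq2, 2 in the fit of all 8 libraries, and 0 to 1 without single libraries. For the difference, 11 members were called with no filter, 4 to 8 without single libraries, and 533 to 1816 genes. The causes were not tested. Exchanging the in vitro labels, an alternative added after seeing the data, only turns the sign of the in vitro term and is no separate support. With those labels exchanged 12 members were called for the difference, among 1803 of 9364 genes called. The difference was then 0.95 for Ifit2, 1.352 for Isg15, 1.186 for Irf1, 1.283 for Irf7, 0.184 for Irf9, 0.271 for Stat2, 1.018 for Isg20, 1.858 for Zbp1, -0.21 for Ifi27l2a, 1.76 for Gbp2, 0.914 for Gbp3, 1.239 for Gbp4, 1.468 for Gbp7, 0.651 for Ifi47, 1.208 for Irgm1 and 0.627 for Igtp, all of opposite sign to the values as labelled. Bst2 kept its sign, at 0.113 with exchanged labels and 0.469 as labelled.

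The labels do not say that a replicate number marks a pair, and 2 pairs per system are too few to settle it (correlation of same-numbered deviations -0.305 in vitro and 0.459 in vivo). With the replicate block, 1078 genes and 6 members (Oas2, Oas3, Oasl2, Isg20, Gbp3 and Iigp1) were called in vivo. In vitro 11 members were called, among 3159 of 9658 genes. With the numbers crossed, an alternative added after seeing the data, 15 members rose in vitro among 4997 genes called.

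Other sign changes were all in values that were not called. With upper-quartile scaling Irf7 in vivo was -0.014. The Gbp3 difference was 0.008 with no filter, and 0.055 and 0.003 with limma, and the Isg20 difference was 0.076 with limma on log2(FPKM + 1). Without single libraries the in vivo fold changes ran from -0.109 to 0.193 for Ifit1, -0.202 to 0.474 for Ifit3, -0.283 to 0.136 for Oasl1, -0.086 to 0.381 for Isg15, -0.026 to 0.183 for Irf1, -0.123 to 0.153 for Irf7, -0.23 to 0.028 for Irf9, -0.003 to 0.148 for Stat2, -0.031 to 0.158 for Zbp1, -0.079 to 0.206 for Rtp4, -0.055 to 0.181 for Ifi27l2a and -0.017 to 0.214 for Igtp. The differences ran from -0.384 to 0.094 for Isg20 and -0.148 to 0.128 for Gbp3. With 2 libraries per group and few reads, the 7 members below the in vitro filter are limited by counting error.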
